A study of Mus musculus with 44 samples.

Results

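Among the 152393 regions of open chromatin measured in mouse preimplantation embryos, 5071 (3.33%) fell in accessibility from the morula to the early inner cell mass (ICM). They were chosen by their measured values. A peak was taken when its mean accessibility in Oct4 Ctrl early ICMs lay at least 1.5 below that in Oct4 Ctrl morulae and also at least 1.5 below that in Oct4 Ctrl late morulae. Accessibility is the rlog value of a peak, a normalized count of Tn5 insertions on a log2 scale in a window of 200 bp. A difference of 1 is nominally a factor of 2, but rlog shrinks low values, so differences at weak peaks are understated. These regions are called closing peaks here, although the rule asks for a fall and not for an open or a closed state, and some members were low in morulae or still high in early ICMs. The mirror image of the rule gave 6932 opening peaks, and 12423 steady peaks differed by under 0.5 in both comparisons while being at least as open in morulae as the lower quartile of the closing peaks. Opening and steady peaks serve for comparison.

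The ATAC-seq data held 44 libraries in 12 conditions, each library made from a pool of 20 to 40 embryos. The Oct4 line, KO and Ctrl, contributed morulae at E2.75 and late morulae at E3.25, each with 3 libraries. ICMs at the early (E3.75) and the late stage (E4.5) came from the Oct4 and the Sox2 line, again KO and Ctrl, each with 4 libraries. All mothers carried Zp3-Cre, which is active in growing oocytes, and floxed alleles of *Pou5f1* (the gene that encodes Oct4) or of *Sox2*, so Ctrl embryos also lacked the maternal copy and were not wild type. KO embryos had in addition inherited a null allele from the father, marked with mKO2 for *Pou5f1* or EGFP for *Sox2*, and had no intact copy. The strain is given as B6C3F1. Morulae were used whole. ICMs came from embryos cultured from E2.5 in 1 μM PD0325901, an inhibitor of the kinase MEK that blocks primitive endoderm (PE) formation, and were freed of trophectoderm (TE) by immunosurgery.

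The targeted genes were looked at first. A peak 380 bp upstream of *Sox2* (chr3:34649826-34650025) lay between 0.49 and 1.19 in the 8 Sox2-KO libraries and between 1.96 and 3.28 in the 8 Sox2 Ctrl libraries, with no overlap. The 3 peaks on *Pou5f1* did not part Oct4-KO from Ctrl late ICMs (limma adjusted p = 0.73 to 0.99), so accessibility at the gene gave no check of those labels. Of 214 peaks near pluripotency genes, 72 were lower and 4 higher in Oct4-KO late ICMs, where 10.1% and 8.19% of all 152393 peaks were. Median rlog over all peaks lay between 2.35 and 2.63 in every library. No insertion counts were used here, so library depth is unknown. The median residual SD between replicates was 0.597 at closing peaks and 0.589 at all peaks.

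In the early embryo, cells of the compacting morula become either outer cells, which form the TE under control of the Hippo pathway and the factors Tead4, Cdx2, Gata3 and Tfap2c, or inner cells, which form the ICM. Oct4 and Sox2 are expressed in the ICM and bind together to a composite OCT-SOX motif at many enhancers of pluripotency genes. Krüppel-like factors (KLF), the nuclear receptor Nr5a2 and paired-like homeodomain proteins such as Obox and Otx act on chromatin from the cleavage stages onward. A peak that closes marks a region that loses Tn5 insertions, whatever protein had been bound there.

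To show what closing peaks look like, 7 windows of 200 bases are printed 5′ to 3′ on the plus strand of GRCm38, with the sequence from NCBI RefSeq. The first 3 are the closing peaks with the largest fall in Ctrl embryos, the next 2 rose most in Oct4-KO late ICMs, the sixth fell most there, and the last rose in both knockouts. Capitals mark 5 short motif words on either strand: the GATA factor word AGATAA, the TEAD word GGAATG, the KLF word GGGNGTGG, the paired-like homeodomain word GGATTA and the OCT word ATGCAAAT. A word is a description of letters and not evidence of a bound protein. The *Dapk1* and *Epc2* windows held none of the 5.
*Cacna1b* intron, chr2:24626609-24626808: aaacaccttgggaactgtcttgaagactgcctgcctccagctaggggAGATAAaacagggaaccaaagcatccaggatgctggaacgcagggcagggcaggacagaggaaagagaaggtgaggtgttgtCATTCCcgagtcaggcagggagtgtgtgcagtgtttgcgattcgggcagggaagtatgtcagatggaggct
*Fbxl7* intron, chr15:26702426-26702625: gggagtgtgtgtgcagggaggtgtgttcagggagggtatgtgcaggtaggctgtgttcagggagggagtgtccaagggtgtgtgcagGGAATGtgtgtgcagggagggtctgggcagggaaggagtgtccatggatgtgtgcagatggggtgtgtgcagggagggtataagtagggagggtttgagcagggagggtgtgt
*Ncan* intron, chr8:70105557-70105756: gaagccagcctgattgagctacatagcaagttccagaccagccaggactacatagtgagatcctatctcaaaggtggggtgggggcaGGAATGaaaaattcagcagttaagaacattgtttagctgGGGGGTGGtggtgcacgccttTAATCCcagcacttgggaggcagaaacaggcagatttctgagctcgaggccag
*Dapk1* intron, chr13:60693862-60694061: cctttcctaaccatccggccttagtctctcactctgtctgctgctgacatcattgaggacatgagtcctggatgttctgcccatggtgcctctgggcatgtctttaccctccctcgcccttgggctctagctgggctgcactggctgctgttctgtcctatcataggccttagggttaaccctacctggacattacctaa
Between genes near *Gm13655*, chr2:75625222-75625421: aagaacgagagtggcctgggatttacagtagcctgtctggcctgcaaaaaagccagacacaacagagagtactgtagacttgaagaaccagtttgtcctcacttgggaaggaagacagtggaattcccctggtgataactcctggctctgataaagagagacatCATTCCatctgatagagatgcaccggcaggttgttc
*Bag1* intron, chr4:40940297-40940496: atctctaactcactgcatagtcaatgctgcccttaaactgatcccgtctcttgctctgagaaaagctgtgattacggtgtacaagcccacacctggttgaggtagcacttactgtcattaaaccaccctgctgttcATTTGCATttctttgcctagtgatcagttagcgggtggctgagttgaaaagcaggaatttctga
Between genes near *Epc2*, chr2:49446111-49446310: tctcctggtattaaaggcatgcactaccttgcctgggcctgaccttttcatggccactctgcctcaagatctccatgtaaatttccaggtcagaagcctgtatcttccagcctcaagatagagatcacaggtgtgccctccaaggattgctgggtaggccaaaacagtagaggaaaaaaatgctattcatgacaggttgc

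The levels that chose the peaks are a description only. The median rlog of the closing peaks was 3.67 ± 0.14 (SD of library medians, n = 3) in Oct4 Ctrl morulae, 3.47 ± 0.05 (n = 3) in late morulae and 1.44 ± 0.14 (n = 4) in early ICMs. In 4576 of them (90.2%) every Ctrl morula and late morula library lay above every Ctrl early ICM library, which held for 8.31% of all peaks and follows largely from the rule. The 4 early ICM libraries had medians of 1.64, 1.34, 1.44 and 1.34, so the median closing peak went from above the median of all peaks to below it. Stage, culture and dissection cannot be told apart in this fall, and in pooled embryos neither can fewer accessible cells and less accessibility in each cell. Oct4 Ctrl late ICM libraries, which the rule did not use, had medians of 1.56, 1.59, 1.37 and 1.40, within the range of the early ICMs. Sox2 Ctrl ICMs, from another mouse line and also not used by the rule, stood at 1.80 ± 0.08 (n = 4) early and 1.74 ± 0.09 (n = 4) late.

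**Figure D1:**
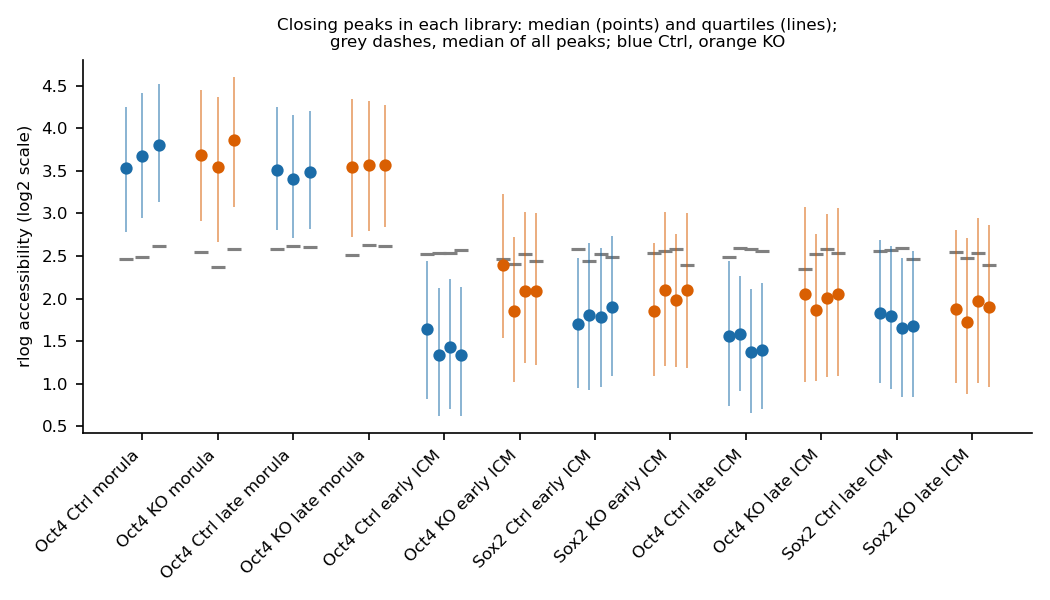
Median rlog (log2 scale, points) and quartiles (lines) of the 5071 closing peaks in each of the 44 libraries, by condition, with Ctrl in blue, KO in orange and the median of all peaks as grey dashes. Morula libraries lie between 3.41 and 3.86 and ICM libraries between 1.34 and 2.39, with the Oct4-KO ICMs above the Oct4 Ctrl ICMs.

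The largest fall, among peaks whose libraries did not overlap, was in an intron of *Cacna1b*, which encodes the pore subunit of a neuronal calcium channel. It read 5.58, 5.85 and 6.04 in Oct4 Ctrl morulae and 2.97, 0.71, 1.36 and 1.11 in early ICMs. Next came an intron of *Fbxl7*, an F-box gene of ubiquitin ligases, at 6.33, 6.43 and 6.55 in morulae and 1.73, 2.12, 2.80 and 2.05 in early ICMs. An intron of *Ncan*, the gene for a brain proteoglycan, went from 5.37, 5.21 and 5.44 to 2.65, 0.84, 1.47 and 0.78. At all 3, the lowest morula library stood more than 2 above the highest early ICM library. The remaining 3 of the 6 largest falls were in an intron of *Tnfsf13b* (chr8:10013923-10014122), the gene for the B cell cytokine BAFF, between genes at chr10:83221976-83222175, and in an intron of the noncoding gene *9530036O11Rik* (chr5:28705783-28705982). The smaller of their falls from morula and from late morula was 3.64, 3.59 and 3.53.

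Whether the same peaks closed without Oct4 was tested within Oct4-KO embryos, whose libraries had no part in the choice. Closing peaks stood at 3.70 ± 0.15 (n = 3) in Oct4-KO morulae and 3.56 ± 0.02 (n = 3) in Oct4-KO late morulae, close to their Ctrl. In Oct4-KO early ICMs the 4 library medians were 2.39, 1.85, 2.09 and 2.09, which lie below every morula library and above every Oct4 Ctrl ICM library. Of the 5071 peaks, 3057 (60.3%) were called lower in Oct4-KO early ICM than in Oct4-KO late morula (limma, adjusted p under 0.05 over all 152393 peaks), where 10.2% of all peaks were. None was called higher by limma, against 8.33% of all peaks, and 1 was higher at an unadjusted p under 0.05. Against Oct4-KO morulae 3324 (65.5%) were lower and 5 (0.0986%) higher, beside 13.7% and 13% of all peaks. The median difference was -1.38 against late morula and -1.47 against morula, where the medians of all peaks were -0.04 and 0.10. The 2 tests share the early ICM libraries.

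The difference between Oct4-KO and Ctrl early ICM can only be described, since the rule used the Ctrl libraries. In it 719 peaks (14.2%; 9.15% without Ctrl early ICM replicate 2) were higher and 3 (0.0592%) lower, where 2.8% and 5.43% of all peaks were. Against Sox2 Ctrl early ICMs, which the rule did not use, 443 (8.74%) were higher in Oct4-KO early ICM and 75 (1.48%) lower, beside 5.16% and 6.87% of all peaks. Here genotype and mouse line cannot be told apart. With only the libraries compared in the fit these shares of closing peaks were 5.32% and 0.868%, beside 3.44% and 5.19% of all peaks.

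**Figure D2:**
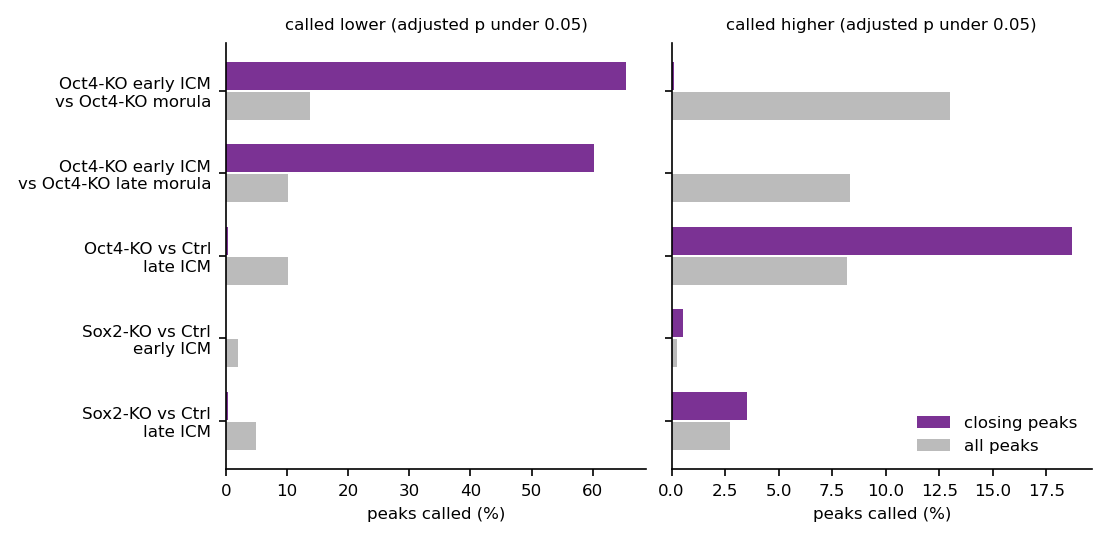
Share of the 5071 closing peaks (purple) and of all 152393 peaks (grey) called lower (left, percent) or higher (right, percent) in 5 comparisons that did not choose the peaks; the 2 panels have different scales. Against their own late morulae 60.3% of closing peaks were lower in Oct4-KO early ICMs, and 18.7% were higher in Oct4-KO than in Ctrl late ICMs.

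The peak in *Cacna1b* also fell furthest in Oct4-KO embryos. It read 6.22, 6.27 and 6.39 in Oct4-KO morulae, 6.25, 5.96 and 6.19 in late morulae and 2.91, 1.34, 2.11 and 2.84 in early ICMs, a difference of -3.83 from late morula (standard error 0.44, limma adjusted p = 2.8e-10). A peak in an intron of *Dgat1* (chr15:76505718-76505917), which encodes an enzyme of triglyceride synthesis, read 5.42, 4.79 and 5.08 in Oct4-KO late morulae and 2.57, 0.74, 1.78 and 1.46 in early ICMs (difference -3.46, adjusted p = 9.4e-08). Between genes, 13222 bp from the start of *Ndufb4*, a gene of respiratory complex I, chr16:37667576-37667775 went from 4.44, 3.98 and 4.90 to 2.28, 0.73, 0.59 and 0.91 (difference -3.32, adjusted p = 4.6e-07). In none of these 3 did late morulae and early ICMs overlap. The fourth, chr18:32623649-32623848, fell by 3.30 (adjusted p = 2.3e-07).

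At the other end were the 5 peaks that stood higher in Oct4-KO early ICMs than in Oct4-KO morulae. An intron of *Sertad2*, which encodes a transcriptional coregulator, read 4.0, 2.50 and 2.17 in Oct4-KO morulae and 4.17, 4.19, 4.52 and 4.88 in Oct4-KO early ICMs at chr11:20570929-20571128 (difference 1.55, limma adjusted p = 0.0057; 0.081 without morula replicate 3). Oct4-KO late morulae read 4.86, 4.96 and 4.91 there and Ctrl late morulae 4.84, 4.84 and 4.97, so at this site 2 of the 3 Oct4-KO morula libraries stood apart as low. At chr5:36701016-36701215, near *D5Ertd579e*, the difference was 1.48 (adjusted p = 0.0089; 0.07 without Oct4-KO morula replicate 2). At chr15:89470429-89470628, near *Arsa*, it was 1.26 (adjusted p = 0.032), and the call was lost without Oct4-KO morula replicate 2 or 3 or early ICM replicate 3 or 4 (adjusted p = 0.058 to 0.12) and with only the libraries compared in the fit (adjusted p = 0.072). An intron of the polarity scaffold gene *Mpp7* (chr18:7614376-7614575) read 3.38, 2.97 and 3.19 in Oct4-KO morulae, 6.24, 5.13 and 5.43 in late morulae and 4.89, 3.31, 4.12 and 5.24 in early ICMs, which lay between the morula stages on average. It was higher in early ICM than in morula by 1.21 (adjusted p = 0.018; 0.06 to 0.11 without morula replicate 2 or early ICM replicate 1 or 4) and lower than in late morula by 1.21 (adjusted p = 0.027; 0.053 to 0.21 without late morula replicate 1 or 3 or early ICM replicate 2 or 3). The fifth lies in *Dapk1* and is described with that gene.

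How far each ICM condition had moved from an open state was also measured against one common set, the 6 Oct4-KO morula and late morula libraries. In Oct4 Ctrl late ICMs 65.8% of closing peaks lay at least 1.5 below both Oct4-KO morula stages and 5.82% lay less than 0.5 below the nearer of them. The corresponding shares were 32.4% and 15.9% in Oct4-KO early ICMs and 40.7% and 18% in Oct4-KO late ICMs. In Sox2-KO ICMs they were 41.5% and 15.9% early and 47.7% and 17% late, and in Sox2 Ctrl ICMs 51.8% and 11.8% early and 54.1% and 11.2% late. All of these share the morula libraries, and no Sox2 line morulae were used here. Of all peaks, 2.95% to 7.69% lay at least 1.5 below. Of all peaks, 73.9% to 79.99% lay less than 0.5 below. By this measure 912 closing peaks were within 0.5 of a morula stage, or above it, in Oct4-KO late ICMs, 862 in Sox2-KO late ICMs, 569 in Sox2 Ctrl late ICMs and 295 in Oct4 Ctrl late ICMs.

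**Figure D3:**
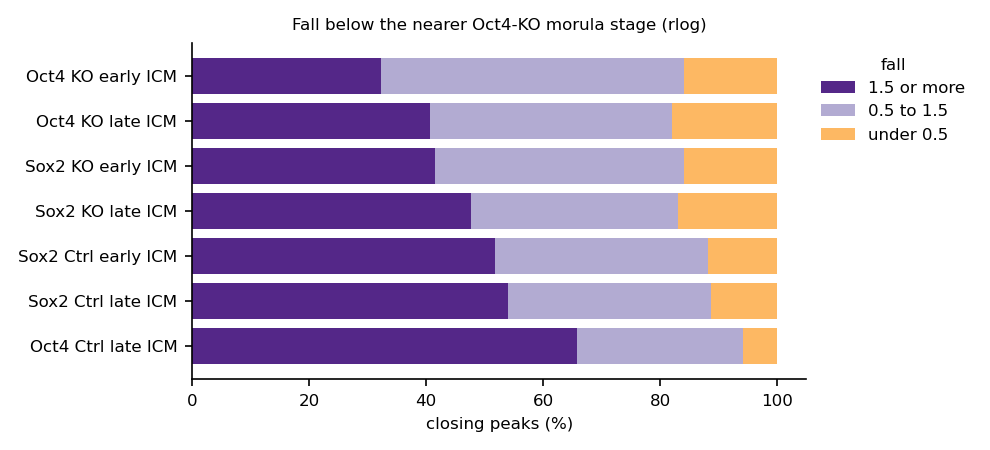
Share of the 5071 closing peaks (percent) whose mean rlog in each ICM condition lay at least 1.5, 0.5 to 1.5 or less than 0.5 below the nearer of the Oct4-KO morula stages. Oct4 Ctrl late ICM had the largest share of deep falls (65.8%) and Oct4-KO early ICM the smallest (32.4%).

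The late ICM gave the comparison of Oct4-KO with Ctrl in which no library had itself chosen the peaks. Its Ctrl libraries share genotype, mouse line and culture with the Ctrl early ICMs that the rule took as low. The choice may thus still favour low Ctrl values here, and how much it added was not tested. The mean of library medians was 1.74 in Sox2 Ctrl late ICMs, between 1.48 in Oct4 Ctrl and 2.00 in Oct4-KO. In late ICM 947 closing peaks (18.7%) were higher in Oct4-KO and 17 (0.335%) lower, where 8.19% of all peaks were higher and 10.1% lower. Closing peaks were already low in Ctrl ICMs, so they had less room than other peaks to be called lower. With peaks below the median mean rlog left out, 745 of 2150 closing peaks (34.7%) and 7714 of 76197 peaks were higher. That mean was taken over all libraries, the Oct4-KO ICMs among them, so closing peaks high in the KO passed this filter more easily. The median difference was 0.48 over closing peaks and -0.04 over all peaks, and 78.5% of closing peaks had a positive difference. Library medians were 2.05, 1.87, 2.01 and 2.05 in Oct4-KO against 1.37 to 1.59 in Ctrl, so the libraries did not overlap, and both lay below the morula libraries. At 892 closing peaks (17.6%) every Oct4-KO library stood above every Ctrl library, which held for 8.81% of all peaks.

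*Dapk1*, which encodes a calmodulin-regulated kinase named for its part in cell death, held 7 closing peaks among the 29 peaks in the gene (chr13:60601947-60763191, plus strand) or within 10 kb of it, and 5 of these 7 were higher in Oct4-KO late ICMs. In the intron peak whose sequence is printed above (chr13:60693862-60694061, 2452 bp from an annotated start site) Oct4-KO late ICMs read 4.53, 4.49, 4.98 and 4.06 and Ctrl 2.90, 1.57, 1.25 and 1.21, a difference of 2.78 (standard error 0.44, limma adjusted p = 4.3e-07). Oct4-KO late morulae had read 3.78, 4.22 and 3.91 there, so this peak was not closed in Oct4-KO late ICMs. Less than 1 kb away, chr13:60693034-60693233 read 6.10, 6.24, 5.95 and 6.02 against 3.64, 3.51, 3.76 and 4.04 (difference 2.34, adjusted p = 1.5e-08). There the Oct4-KO early ICMs, at 5.66, 5.95, 6.05 and 5.72, were also higher than Oct4-KO morulae at 4.64, 4.96 and 4.87 (difference 1.02, adjusted p = 0.022). The third, chr13:60734471-60734670, read 6.14, 5.84, 5.71 and 5.98 against 4.24, 4.06, 4.13 and 4.35 (difference 1.72, adjusted p = 2.4e-06). KO and Ctrl libraries did not overlap at these 3 peaks.

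The fourth *Dapk1* peak, chr13:60600797-60600996, lies 1051 bp before the start of the gene and rose by 2.32 (limma adjusted p = 2.3e-06), and the fifth, chr13:60672410-60672609, rose by 1.62 (adjusted p = 0.002). The other 2 did not pass the test. At chr13:60619828-60620027 Oct4-KO late ICMs read 1.05, 1.42, 0.01 and 0.21 and Ctrl 0.88, 1.02, 1.05 and 0.10, and at chr13:60672843-60673042, beside the fifth peak, they read 2.90, 1.03, 1.68 and 1.79 against 1.23, 1.32, 0.69 and 0.46. Closing peaks on one gene were thus not alike, and the 7 are not independent of each other. In Sox2-KO late ICMs the third peak rose too, from 3.78, 4.59, 3.79 and 4.46 in Sox2 Ctrl to 5.37, 5.60, 5.36 and 5.58 (difference 1.32, adjusted p = 0.00066). The second rose by 1.21 (adjusted p = 0.0086), a call lost without Sox2-KO replicate 2 (adjusted p = 0.056) or Sox2 Ctrl replicate 3 (adjusted p = 0.11).

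Between genes, 8061 bp from the start of *Gm13655*, chr2:75625222-75625421 read 4.75, 3.71, 4.90 and 4.78 in Oct4-KO late ICMs and 2.12, 1.42, 2.07 and 1.40 in Ctrl (difference 2.78, standard error 0.37, limma adjusted p = 3.4e-09). Oct4-KO morulae had 3.82, 3.54 and 3.68 and Oct4-KO late morulae 4.80, 4.72 and 4.44 at that peak. An intron of *Map3k9*, a kinase upstream of JNK signalling, read 4.79, 3.93, 4.20 and 4.85 against 1.15, 1.28, 2.16 and 2.33 at chr12:81744523-81744722 (difference 2.72, adjusted p = 1e-07). A window over the noncoding gene *Gm24578* (chr14:12333779-12333978) read 3.68, 3.90, 4.18 and 3.86 against 1.56, 0.79, 1.25 and 1.21 (difference 2.70, adjusted p = 1.6e-06). In each of these 3 the lowest Oct4-KO library stood more than 1 above the highest Ctrl library.

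**Figure D4:**
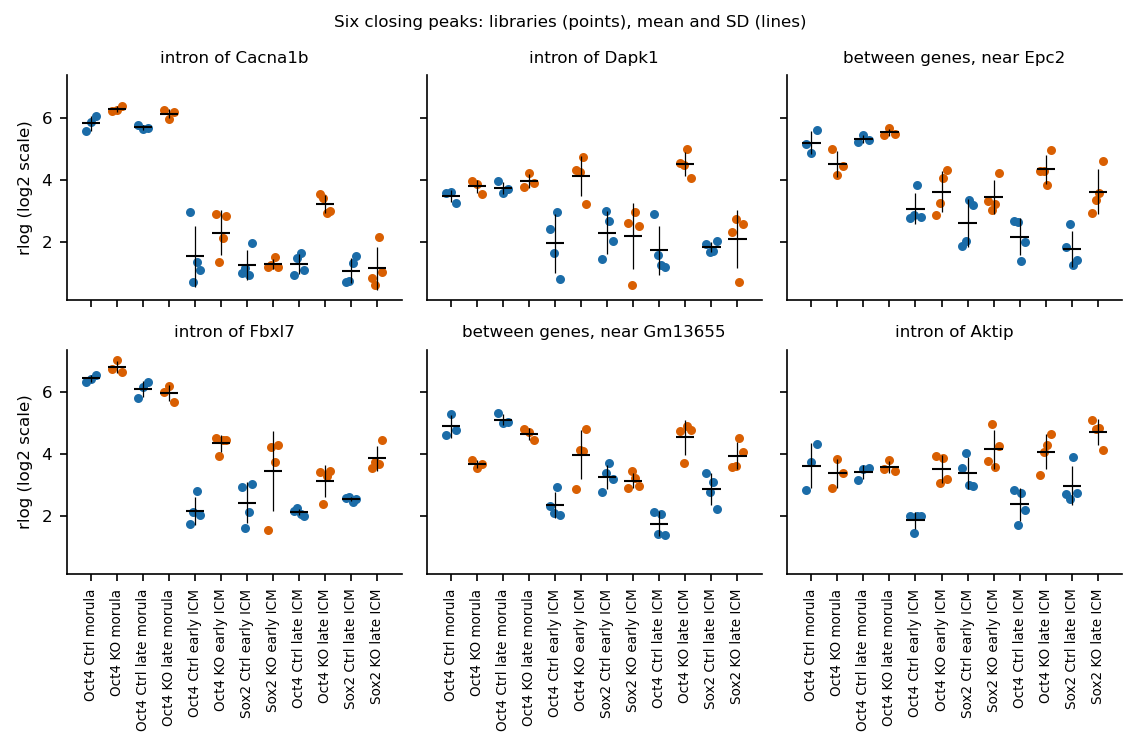
Rlog (log2 scale) of 6 closing peaks in every library (points; Ctrl blue, KO orange), with the mean and SD of each condition as lines; the panels show the peaks described beside *Cacna1b*, *Dapk1* (chr13:60693862-60694061), *Epc2*, *Fbxl7*, *Gm13655* and *Aktip*. At *Cacna1b* the Oct4-KO late ICMs lie between 2.92 and 3.54, below all morulae, while at *Dapk1* they lie between 4.06 and 4.98, with the morulae or above.

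The 6 deepest falls in Ctrl did not include the 4 largest rises in Oct4-KO. At *Cacna1b* Oct4-KO late ICMs read 3.54, 3.40, 2.92 and 3.01 and Ctrl 0.95, 1.47, 1.66 and 1.09, a rise of 1.93 (limma adjusted p = 2e-04) that left the peak far below its morula level. *Fbxl7* read 3.41, 2.39, 3.28 and 3.45 in Oct4-KO against 2.16, 2.27, 2.08 and 2.02 in Ctrl late ICMs (difference 1.00, adjusted p = 0.045). That call was lost without any 1 of the Ctrl libraries or of Oct4-KO replicates 1, 3 and 4 (adjusted p = 0.062 to 0.12) and with only the libraries compared in the fit (adjusted p = 0.083). *Ncan* read 3.72, 1.97, 3.07 and 4.06 against 2.51, 2.32, 2.12 and 2.49, and the groups overlapped. *Tnfsf13b*, at 0.83, 1.38, 0.26 and 0.54 against 1.97, 0.40, 0.16 and 0.39, was low in either genotype.

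There were 17 closing peaks lower in Oct4-KO late ICMs. The one with the largest fall, in an intron of the HSP70 cochaperone gene *Bag1* (chr4:40940297-40940496), read 0.89, 1.04, 1.16 and 0.61 in Oct4-KO late ICMs and 3.02, 2.86, 1.76 and 3.15 in Ctrl (difference -1.77, standard error 0.44, limma adjusted p = 0.0017). It read 2.32, 1.33 and 2.53 in Oct4-KO late morulae against 4.15, 3.81 and 4.68 in Ctrl, so it stood low before the ICM formed. Sox2-KO late ICMs were low there as well, at 1.61, 1.30, 1.27 and 1.33 against 3.45, 3.49, 3.00 and 2.80 in Sox2 Ctrl (difference -1.81, adjusted p = 0.0028). Its window holds the OCT word shown in capitals and an OCT-SOX composite, searched with up to 3 mismatches. The second, 7348 bp from the start of *Ulk1*, a kinase that starts autophagy, read 1.27, 2.21, 1.07 and 1.40 against 2.89, 3.51, 2.95 and 3.13 at chr5:110817346-110817545 (difference -1.63, adjusted p = 0.0028), and its window also holds the OCT word.

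Sox2-KO moved fewer of these peaks past the test. In early ICM 28 closing peaks (0.552%) were higher in Sox2-KO than in Sox2 Ctrl, where 0.238% of all peaks were. With only the libraries compared in the fit the shares were 0.0789% of closing and 0.0374% of all peaks. Without Sox2-KO replicate 2 the share of closing peaks was 0.296%, and no share of all peaks is given for it. No closing peak was lower by limma in early ICM, where 1.91% of all peaks were, and 68 were lower at an unadjusted p under 0.05. Closing peaks were already low in Sox2 Ctrl ICMs, so they had less room than other peaks to be called lower. In late ICM 179 (3.53%) were higher and 20 (0.394%) lower, against 2.71% and 4.88% of all peaks, so the share of closing peaks called higher was near that of all peaks. For closing peaks alone it was 2.15% without Sox2-KO replicate 3 and 2.35% without Ctrl replicate 4, and no share of all peaks is given for these settings. With peaks below the median mean rlog left out the share of closing peaks was 6.98%, and that of all peaks 3.72%. The filter took the mean over all libraries, the Sox2-KO ICMs among them. The median difference was 0.13 over closing peaks and 0.01 over all peaks. Library medians in late ICM were 1.88, 1.72, 1.98 and 1.90 in Sox2-KO and 1.83, 1.80, 1.66 and 1.68 in Ctrl, which overlap.

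Of the 179 closing peaks higher in Sox2-KO late ICM, 103 (57.5%) were also higher in Oct4-KO late ICM, and these were 10.9% of the 947 higher in Oct4-KO. Over all peaks, 1550 of the 4129 higher in Sox2-KO (37.5%) were also higher in Oct4-KO, which is 12.4% of the 12481 higher there. Whether the overlap differs between closing and other peaks was not tested. Near *Epc2*, which encodes a subunit of the NuA4 histone acetyltransferase complex, the peak 5276 bp from the start (chr2:49446111-49446310) read 2.95, 3.35, 3.57 and 4.62 in Sox2-KO against 1.83, 2.59, 1.27 and 1.42 in Sox2 Ctrl (difference 1.85, standard error 0.39, limma adjusted p = 0.00032). The same peak read 4.28, 4.28, 3.84 and 4.96 in Oct4-KO against 2.66, 2.63, 1.39 and 1.99 in Oct4 Ctrl (difference 2.17, adjusted p = 8.1e-06). In an intron of *Aktip*, whose product binds the kinase Akt, chr8:91170242-91170441 read 5.08, 4.81, 4.83 and 4.11 in Sox2-KO against 2.70, 2.56, 3.91 and 2.73 in Ctrl (difference 1.73, adjusted p = 0.00084), and 3.31, 4.05, 4.29 and 4.65 in Oct4-KO against 2.83, 1.71, 2.76 and 2.20 (difference 1.70, adjusted p = 0.00056). At the *Mpp7* peak the values were 4.96, 4.68, 5.10 and 5.18 in Sox2-KO against 3.99, 3.71, 2.52 and 2.34 (difference 1.84, adjusted p = 0.00021) and 5.93, 5.40, 5.91 and 5.31 in Oct4-KO against 3.93, 2.70, 2.94 and 2.98 (difference 2.50, adjusted p = 1.4e-07). No library overlapped between KO and Ctrl at these 3 peaks in either line. The fourth of this kind, chr18:53070932-53071131, lies 105285 bp from the nearest start site, that of *Snx2*, and rose by 2.01 in Sox2-KO (adjusted p = 6.8e-05) and by 1.97 in Oct4-KO (adjusted p = 5.1e-05).

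Other peaks moved most in Sox2-KO late ICMs. Between genes at chr13:66614738-66614937 Sox2-KO read 3.02, 3.73, 4.94 and 3.70 and Ctrl 1.56, 1.23, 2.89 and 1.51 (difference 2.05, limma adjusted p = 0.00045). In Oct4-KO late ICMs the same peak differed by 1.26 (adjusted p = 0.031), a call lost without Ctrl replicate 1, 2 or 3 or Oct4-KO replicate 1, 3 or 4 (adjusted p = 0.054 to 0.16). At chr1:191785605-191785804 Sox2-KO rose by 2.02 (adjusted p = 0.00034), with 4.11, 3.63, 4.04 and 4.72 against 2.27, 2.52, 1.19 and 2.43. An intron of the noncoding gene *Gm31135* (chr8:8102112-8102311) read 5.20, 5.01, 5.20 and 5.02 in Sox2-KO against 3.05, 3.23, 3.40 and 3.01, a rise of 1.94 (adjusted p = 0.00022). The largest decreases were between genes at chr2:27791610-27791809, where Sox2-KO read 0.40, 1.40, 1.36 and 1.46 against 4.23, 3.58, 3.08 and 3.37 (difference -2.41, adjusted p = 2.6e-05), and in an intron of the nucleoporin gene *Nup188* (chr2:30335571-30335770), with 1.5, 2.19, 1.06 and 1.01 against 3.84, 3.42, 2.25 and 3.51 (difference -1.82, adjusted p = 0.0021). In all 5 the KO and Ctrl libraries of the Sox2 line did not overlap. *Fbxl7* rose in Sox2-KO late ICMs too, to 3.56, 3.73, 3.68 and 4.47 from 2.57, 2.62, 2.47 and 2.56 in Ctrl (difference 1.31, adjusted p = 0.013; 0.083 without Sox2-KO replicate 4). *Ncan* rose by 1.25 (adjusted p = 0.042), which was lost with only the libraries compared in the fit (adjusted p = 0.085) and without Ctrl replicate 2, 3 or 4 or Sox2-KO replicate 2, 3 or 4 (adjusted p = 0.076 to 0.31).

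The effects of the 2 knockouts in late ICM were compared directly, as the difference of their differences. It was positive, that is, the Oct4-KO difference lay above the Sox2-KO difference, at 49 closing peaks (0.966%) and negative at 6 (0.118%), beside 0.351% and 0.554% of all peaks. A positive value can hold a rise in Oct4-KO, a fall in Sox2-KO or both. The rule used Oct4 Ctrl and not Sox2 Ctrl libraries, and what this added was not tested. Means of library medians in late ICM were 1.48 in Oct4 Ctrl, 1.74 in Sox2 Ctrl, 2.00 in Oct4-KO and 1.87 in Sox2-KO. For closing peaks alone the positive share was 0.513% without Oct4 Ctrl replicate 4, 0.532% without Sox2-KO replicate 2, 0.592% without Oct4-KO replicate 1 and 0.631% without Oct4-KO replicate 3. Among the named peaks the difference was 2.52 (standard error 0.62, limma adjusted p = 0.02) at the *Dapk1* peak chr13:60693862-60694061, where Sox2-KO read 2.33, 2.8, 0.73 and 2.59 and Sox2 Ctrl 1.94, 1.69, 1.70 and 2.02. It was 2.13 (adjusted p = 0.044) at the *Dapk1* peak chr13:60672410-60672609, 2.64 (adjusted p = 0.017) at the *Gm24578* window and -2.33 (adjusted p = 0.017) at the *Gm31135* peak. Most of the 947 peaks higher in Oct4-KO were not shown to differ between the knockouts.

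Between E3.75 and E4.5 few closing peaks changed. In Sox2 Ctrl ICMs 4 (0.0789%) were higher at the late stage and 5 (0.0986%) lower, where 0.474% and 0.121% of all peaks were. In Oct4-KO ICMs 53 (1.05%) were higher and 44 (0.868%) lower, against 1.52% and 0.678% of all peaks. Single libraries moved these counts, given next for closing peaks alone. In Sox2 Ctrl the share higher was 0.00% without late ICM replicate 1 or 2, 0.0197% without early ICM replicate 4 and 0.0394% without early ICM replicate 3. The share lower there was 0.0197% without late ICM replicate 1 or 3, 0.0394% without early ICM replicate 2 or 3 and 0.0592% without late ICM replicate 2 or early ICM replicate 4. In Oct4-KO the share higher was 0.434% to 0.592% without late ICM replicate 3 or 4 or early ICM replicate 2 or 4, and the share lower was 0.256% to 0.532% without late ICM replicate 2, 3 or 4 or early ICM replicate 1, 2 or 4. The median differences were -0.07 in Sox2 Ctrl and -0.10 in Oct4-KO, beside 0.03 and -0.02 over all peaks.

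Sequence and position, which the rule did not use, are described here with no test. Of closing peaks 46.3% had at least 50% of their bases soft-masked, that is, marked as repeats in the genome sequence. The share was 19.8% in opening, 17.6% in steady and 23.2% in all peaks. Few lay at promoters. A transcription start site was within 100 bp of 1.36% of closing, 3.07% of opening, 18.5% of steady and 7.77% of all peaks, while 53.2% of closing peaks were in introns and 42.3% between genes. Every chromosome carried them, at 2.66% (chromosome 6) to 4.09% (chromosome 19) of its peaks. The median GC content was 49.5%, against 50% in all peaks.

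The KLF and paired-like words had their highest shares in closing peaks among the 4 sets. The KLF word GGGNGTGG, on either strand, was in 41.2% of closing, 12.6% of opening, 22.6% of steady and 20.6% of all windows. The paired-like homeodomain word GGATTA was in 22.5%, 6.26%, 8.23% and 11.5%. Shares in closing peaks were lower than in opening peaks for some words and higher for others. The NR5A2 word TCAAGGTCA was in 1.16% of closing and 7.4% of opening windows (3.39% of all), the shorter nuclear receptor word AAGGTCA that it contains in 6.07% and 18.1% (9.66% of all), the SOX word ACAATG in 8.28% and 20.3% (10.9% of all), and the OCT-SOX composite in 1.2% and 11.3% (3.11% of all). The TFAP2 word GCCNNNGGC was in 4.75% of closing, 14.2% of opening and 11% of all windows. The GATA word was in 19% of closing, 17.3% of opening and 17.5% of all windows, the TEAD word in 20.6%, 21.9% and 18.9%, and the CDX word TTTATNG in 9.11%, 8.28% and 9.23%. The OCT word alone was in 2.56% of closing, 4.63% of opening and 2.39% of all windows, the AP-1 word TGANTCA in 5.68%, 8.37% and 7.75%, the GRHL word AACCNGTT in 2.03%, 1.53% and 1.79%, and the NFY word CCAAT in 22.9%, 24.4% and 24.7%. The ETS word CCGGAAG was in 0.868% of closing, 1.34% of opening and 2.71% of all windows, and the CTCF consensus in 1.52%, 0.216% and 4.13%.

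**Figure D5:**
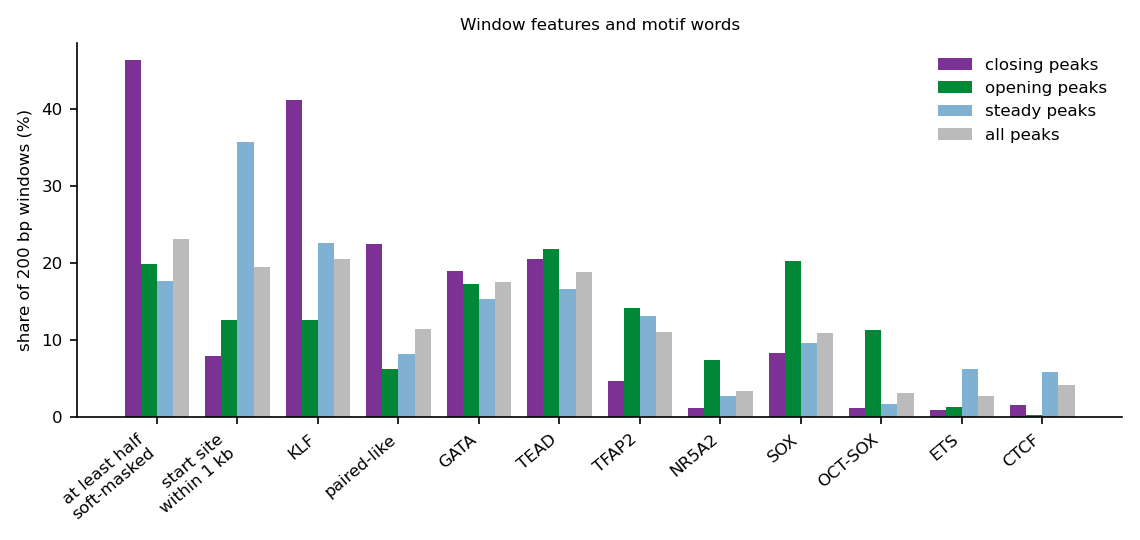
Share of 200 bp windows (percent) that were at least 50% soft-masked, lay near a start site or held a motif word on either strand, in closing, opening, steady and all peaks. Closing peaks have the highest bars for soft-masking (46.3%), the KLF word (41.2%) and the paired-like word (22.5%), and low bars for the NR5A2, SOX and OCT-SOX words.

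Repeats moved with the KLF and paired-like shares, so these were also counted by masking. Among windows masked under 50%, the KLF word was in 26.4% of closing and 16.9% of all peaks and the paired-like word in 16.4% and 7.65%. Among windows masked by at least 50% the shares were 58.4% and 33.0% for KLF and 29.5% and 24.1% for the paired-like word. The shares in closing peaks were thus higher than in all peaks at either level of masking.

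A search for 20 base words shared by many closing peaks, made after the values had been seen, gave 2 that show how far repeats enter the set. The first, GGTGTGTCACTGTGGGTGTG, was in 342 closing windows (6.74%), in 0 opening windows, in 40 steady windows and in 1425 of all windows, so 24% of the peaks that held it were closing peaks. Of these 342 windows 98.0% were at least 50% soft-masked, and 335 also held the KLF word, whose letters can overlap the end of the longer word. The second, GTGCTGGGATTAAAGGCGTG, was in 311 closing windows (6.13%) and 2770 of all windows, of which 11.2% were closing peaks. It contains the paired-like word GGATTA, and its letters are those of the rodent B1 family of short interspersed repeats. Of these 311 windows 72.3% were at least 50% soft-masked. No repeat annotation was used here. Each word was found on 20 chromosomes. Examples are printed 5′ to 3′ on the strand that reads the word, with the word in capitals and 15 bases on either side, from GRCm38 (RefSeq).
First word, chr5:15035608-15035657 (plus): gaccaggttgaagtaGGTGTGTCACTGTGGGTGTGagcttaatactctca
First word, chr13:96591436-96591485 (minus, intron of *Col4a3bp*): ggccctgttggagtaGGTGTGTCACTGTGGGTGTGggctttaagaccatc
First word, chr2:158944344-158944393 (minus): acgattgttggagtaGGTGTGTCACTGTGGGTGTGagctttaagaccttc
Second word, chr8:70105681-70105730 (minus, the *Ncan* peak printed above): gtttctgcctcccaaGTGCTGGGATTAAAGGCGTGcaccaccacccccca
Second word, chr7:123226699-123226748 (minus, intron of *Slc5a11*): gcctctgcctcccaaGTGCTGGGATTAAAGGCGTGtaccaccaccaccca
Second word, chr8:105548991-105549040 (minus, intron of *Atp6v0d1*): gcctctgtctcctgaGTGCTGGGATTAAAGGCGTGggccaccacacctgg
The copies share the word and differ in the flanks. Mean rlog at the peak of the first copy fell from 4.88 in Oct4 Ctrl morulae to 1.72 in early ICMs, and that at the *Slc5a11* peak from 5.70 to 1.95. The authors kept only uniquely mapped reads with a mapping quality of at least 30, so copies with alike flanks may be undercounted.

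Of the 651 closing peaks that held either word, 10.9% were higher in Oct4-KO late ICMs, and of the 4420 without them 19.8% were, where 4.77% and 8.29% of all peaks with and without the words were, a split chosen after the data had been seen and not tested. Likewise 12.2% of the 2350 closing peaks masked by at least 50% and 24.3% of the other 2721 were higher, where 5.34% and 9.05% of all peaks of the same kinds were. By motif, 27.7% of closing peaks with the GATA word and 25.9% of those with the TEAD word were higher, beside 18.3% and 13.1% of all peaks with these words, and 15.5% of those with the KLF word, beside 6.71%. Closing within Oct4-KO embryos had other shares. Against Oct4-KO late morula, 62.1% of the closing peaks with either word were lower in Oct4-KO early ICM, beside 60.3% of all closing peaks and 10.2% of all peaks. The share was 50.6% for the first word and 74.6% for the second. No such share is given for all peaks with the words.

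Lists of genes of early lineages and their signals were searched within 10 kb of their start sites and read against the 3.33% of all peaks that were closing peaks. The count was 5 of 184 peaks (2.72%) at 24 TE genes, 1 of 108 (0.926%) at 16 PE genes, 1 of 214 (0.467%) at 26 pluripotency genes, 3 of 76 (3.95%) at 22 cleavage stage genes, 4 of 201 (1.99%) at 18 genes of junctions and polarity, 5 of 209 (2.39%) at 20 Hippo genes and 1 of 151 (0.662%) at 20 genes of FGF and ERK signalling. No list was tested against the other peaks. In Oct4-KO late ICMs 10 peaks were higher and 17 lower at the PE genes, 1 and 6 at the cleavage stage genes, 14 and 13 at the junction and polarity genes, 20 and 23 at the Hippo genes and 11 and 16 at the FGF and ERK genes, beside 8.19% higher and 10.1% lower over all peaks. In Sox2-KO late ICMs the same lists had 2 higher and 3 lower, 1 and 2, 14 and 4, 12 and 6, and 6 and 3, and the pluripotency genes 4 higher and 34 lower, beside 2.71% and 4.88% of all peaks. No closing peak was near *Cdx2*, *Gata3*, *Tfap2c*, *Tead4*, *Pou5f1*, *Sox2* or *Nanog*.

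Of the TE genes, *Krt8*, which encodes a keratin of the first epithelium, had a closing peak 8508 bp from its start (chr15:101995875-101996074). It read 4.55, 3.62, 4.06 and 3.63 in Oct4-KO late ICMs and 2.65, 2.93, 2.53 and 1.98 in Ctrl (difference 1.44, standard error 0.40, limma adjusted p = 0.0052), with no overlap. *Lrp2*, the gene for the endocytic receptor megalin, read 4.68, 4.65, 4.21 and 3.88 against 2.8, 2.86, 2.15 and 3.44 in an intron (chr2:69500722-69500921, difference 1.56, adjusted p = 0.00081). In Sox2-KO late ICMs the *Lrp2* peak rose by 1.18 (adjusted p = 0.028), a call lost without Ctrl replicate 1 or 3 or Sox2-KO replicate 1 or 3 (adjusted p = 0.068 to 0.21). *Id2*, which encodes an inhibitor of basic helix-loop-helix factors, read 3.00, 3.29, 3.22 and 3.99 against 2.26, 0.84, 2.44 and 2.31 at chr12:25102762-25102961 (difference 1.42, adjusted p = 0.0076; 0.09 without Ctrl replicate 2). A peak in *Dab2*, which encodes an endocytic adaptor, read 4.5, 4.06, 4.31 and 3.65 against 3.88, 2.92, 3.43 and 4.17 at chr15:6388196-6388395 and did not pass.

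Over all 184 peaks at the 24 TE genes, 27 were higher and 15 lower in Oct4-KO late ICMs, where 8.19% and 10.1% of all peaks were. In Sox2-KO late ICMs 21 were higher and 5 lower, where 2.71% and 4.88% of all peaks were. Their mean rlog per library lay between 3.67 and 3.95 in Oct4-KO late ICMs, 3.45 and 3.82 in Oct4 Ctrl late ICMs, 3.76 and 3.98 in Sox2-KO late ICMs and 3.42 and 3.58 in Sox2 Ctrl late ICMs, and between 3.05 and 3.63 in morulae of either genotype. KO and Ctrl ranges overlapped in the Oct4 line and did not in the Sox2 line, and the part of TE gene accessibility in the result was not tested.

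In the Hippo pathway, which sets TE against ICM fate, the gene *Nf2* (Merlin, an upstream activator) had 3 closing peaks. One in an intron, chr11:4775236-4775435, fell within Oct4-KO embryos by 2.38 from late morula to early ICM (limma adjusted p = 8.1e-06) and in late ICMs read 3.47, 3.48, 3.80 and 4.01 in Oct4-KO and 2.35, 2.58, 2.62 and 2.86 in Ctrl (difference 1.09, adjusted p = 0.028). The libraries did not overlap, but the call was lost without Ctrl replicate 1, 2 or 3 or Oct4-KO replicate 3 or 4 (adjusted p = 0.052 to 0.086). The *Nf2* peak 7235 bp from its start, chr11:4856672-4856871, read 1.59, 1.84, 0.47 and 2.40 in Oct4-KO and 2.10, 2.19, 1.64 and 0.60 in Ctrl late ICMs and did not pass. The peak 47 bp from a start of *Vgll4*, a cofactor of TEAD proteins, read 3.16, 2.20, 2.69 and 1.75 against 2.47, 2.48, 2.85 and 2.62 and did not pass. Nor did that near *Mob1a*, an activator of Lats kinases, which lies in an intron of *Mthfd2* and read 2.25, 0.61, 1.20 and 0.66 against 1.69, 0.54, 1.35 and 1.35. The peaks at the junction and polarity genes *Pard3*, *Prkcz* and *Rhoa*, at *Amn* of the PE list and at *Spry4*, an inhibitor of ERK signalling, did not pass either. Means of these last 5 peaks lay between 1.68 and 3.47 in Oct4-KO late ICMs and between 1.19 and 2.86 in Ctrl.

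The one pluripotency gene with a closing peak was *Lefty1*, which encodes an antagonist of Nodal. The peak, 804 bp from its start (chr1:180934119-180934318), read 1.60, 0.26, 0.10 and 1.25 in Oct4-KO and 0.97, 1.10, 1.35 and 0.20 in Ctrl late ICMs, and fell within Oct4-KO embryos by 1.57 from late morula to early ICM (limma adjusted p = 0.01). Cleavage stage genes had closing peaks at *Tcstv1*, 137 bp from its start, and at *Tcstv3*, 144 bp from its start and, in an intron of *BC147527*, at chr13:120307583-120307782. These genes have closely similar copies, so their reads are uncertain. Oct4-KO late ICMs read 0.44, 1.10, 0.05 and 0.77 at the *Tcstv3* start and Ctrl 0.33, 0.15, -0.02 and 0.14, near the floor of the scale.

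By number of closing peaks in a gene or within 10 kb of it, *Gm20388* led with 18 of 542 peaks and *Fgfr2* followed with 8 of 267. Both counts come from very long gene models in the annotation (chr8:119910841-124345722 and chr7:130162451-133123350), which run over many other genes, and their shares of 3.32% and 3.00% are near that of the genome. *Ankrd6* had 7 of 37, *Dapk1* 7 of 29 and *Sdk1*, which encodes a cell adhesion protein, 7 of 58. Within the long *Fgfr2* model, at 41610 bp from the start of *Plekha1*, chr7:130824047-130824246 read 4.44, 4.13, 4.40 and 4.65 in Oct4-KO late ICMs and 2.30, 2.37, 2.00 and 0.87 in Ctrl (difference 2.52, limma adjusted p = 1.2e-06). The 8 closing peaks of this model moved in both directions. At chr7:130531682-130531881 Oct4-KO late ICMs read 2.47, 1.66, 1.65 and 1.74 and Ctrl 2.88, 2.64, 2.85 and 2.76. Within the *Gm20388* model, 3271 bp from the start of *Trhr2*, chr8:122363918-122364117 rose by 1.64 in Oct4-KO (adjusted p = 7e-04) and by 1.74 in Sox2-KO late ICMs (adjusted p = 0.00059). Its 18 closing peaks did not all rise either. At chr8:122340911-122341110 Oct4-KO late ICMs read 1.04, 2.49, 1.55 and 1.61 and Ctrl 1.38, 2.68, 2.31 and 2.52. In *Ankrd6*, an ankyrin repeat gene linked to Wnt signalling, 2 of the 7 rose in Oct4-KO late ICMs, by 1.63 at chr4:32847689-32847888 (adjusted p = 0.0042) and by 1.34 at chr4:32812252-32812451 (adjusted p = 0.026). The second of these was lost without Ctrl replicate 1 or Oct4-KO replicate 2, 3 or 4 (adjusted p = 0.062 to 0.11).

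The threshold of 1.5 cuts a continuous range. Just inside it were chr16:28952757-28952956 and, in an intron of *Drp2*, chrX:134420139-134420338, each with a smaller fall of 1.5004, and just outside were chr13:120282291-120282490 with 1.4999 and chr2:170339349-170339548 with 1.4998. A threshold of 1 took 14349 peaks and one of 2 took 1290.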

How the data were processed

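ATAC-seq libraries came from pools of embryos, transposed with Tn5, amplified and sequenced as pairs of 75 bp reads. Per the paper's methods, the authors trimmed reads with SeqPurge, aligned them to mm10 with Bowtie2, removed duplicates with Picard, kept uniquely mapped reads with a mapping quality of at least 30, called peaks with MACS2, counted insertions in 200 bp windows at merged summits with BEDTools and normalized the counts to rlog values with DESeq2. The authors deposited the rlog result, a log2 quantity, for 152393 peaks. The rlog transformation shrinks low values towards the mean of a peak, so differences at weak peaks are understated. Counts are not used here and depth is unknown.

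The deposited group means were recomputed from the replicates (largest difference 4.3e-08) and used for the rule. All 44 libraries were fitted in limma 3.58.1 (R 4.3.3) with a mean for each condition and 32 residual degrees of freedom, moderated with a trend and tested two-sided. P-values were adjusted by Benjamini-Hochberg over all peaks and called under 0.05. Nothing in the labels ties pools to separate litters, so p-values measure the spread between these pools. In the self-test with known differences the fit recovered 71.6% of differences of 2 and 2.99% of differences of 1 in Oct4-KO against Ctrl late ICM. Each size of difference was given to 66 or 67 of 152393 peaks, far fewer than were called in the data. The adjusted cutoff was thus stricter than in the data, so these recoveries do not carry over to it. Figures and counts were made with Python 3.11.15, numpy 2.4.6, pandas 2.3.3 and matplotlib 3.10.9. Genes came from GENCODE vM21 (139486 transcripts) and sequence from RefSeq GRCm38.

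The closing peaks, gene lists and comparisons were chosen with earlier results of these data known. Named peaks were the 6 largest falls without overlap of Ctrl libraries, the 4 largest increases and 2 largest decreases in each knockout late ICM, the 4 largest shared increases, the 4 smallest and 4 largest own falls in Oct4-KO, up to 4 peaks for each gene list, those of the genes with most closing peaks (*Gm20388*, *Fgfr2* and, tied, *Ankrd6*, *Dapk1* and *Sdk1*), and the 2 nearest the threshold on either side. Replicate numbers were checked as pairs by correlating deviations from the group means of Ctrl and KO libraries. Every same-numbered pair was above 0.1 only in Oct4 early ICM (0.121 to 0.162) and Oct4 late morula (0.109 to 0.192). Alternatives were a fit of only the libraries compared, leaving out peaks below the median mean rlog, a replicate block, quantile normalization, rule thresholds of 1 and 2, wider distances, and leaving out each library. One item is not reported here.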

Additional observations from a re-analysis of the deposited data

Results flagged for a closer look

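Groups of 4 libraries were examined at 27 named peaks and for the library medians of the closing peaks, 224 in all. In 10 of them, all at named peaks, 1 library stood apart from the other 3, where chance alone gives about 1 in 20 groups. At the *Fbxl7* peak these were Oct4-KO early ICM replicate 2 (3.95, others 4.45 to 4.53) and Oct4-KO late ICM replicate 2 (2.39, others 3.28 to 3.45). Oct4-KO replicate 2 was also the low library in late ICM at chr2:75625222-75625421 (3.71, others 4.75 to 4.9) and in early ICM at chr5:110817346-110817545 (1.83, others 2.69 to 2.85). Among Ctrl libraries the values set apart were 1.97 at *Tnfsf13b* (Oct4 Ctrl late ICM replicate 1, others 0.157 to 0.401), 3.84 near *Epc2* (Oct4 Ctrl early ICM replicate 3, others 2.78 to 2.88), 1.46 at *Aktip* (Oct4 Ctrl early ICM replicate 2, others 1.99 to 2) and 3.91 at *Aktip* (Sox2 Ctrl late ICM replicate 3, others 2.56 to 2.73). In Sox2-KO late ICMs they were 3.04 at *Map3k9* (replicate 2, others 2.27 to 2.38) and 0.397 at chr2:27791610-27791809 (replicate 1, others 1.36 to 1.46).

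The effects of the 2 knockouts in late ICM differed by the limma test of the difference, with the Oct4-KO minus Sox2-KO effect positive at 49 closing peaks and negative at 6. Of the named peaks, 4 were among them. The Oct4-KO minus Sox2-KO effect was 2.52 at the *Dapk1* peak chr13:60693862-60694061, 2.13 at the *Dapk1* peak chr13:60672410-60672609, 2.64 at *Gm24578* and -2.33 at *Gm31135*.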

How the results depend on the processing

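Shares are of closing peaks called higher, unless said to be lower, each with the share of all peaks under the same setting in parentheses. With peaks below the median mean rlog left out, 2150 closing peaks were left. The mean was over all libraries, so this filter also uses the KO values that are compared and favours closing peaks high in them. The shares were then 25% (3.62%) for Oct4-KO against Ctrl early ICM, 16.1% (7.06%) and lower 2.6% (7.7%) for Oct4-KO against Sox2 Ctrl early ICM, 34.7% (10.1%) for Oct4-KO late ICM, 1.16% (0.283%) and 6.98% (3.72%) for Sox2-KO early and late ICM, 2.37% (0.601%) for the difference of effects, 2.33% (1.59%) for late against early ICM in Oct4-KO and lower 0.186% (0.0971%) in Sox2 Ctrl. With only the libraries compared in the fit they were 5.32% (3.44%) and lower 0.868% (5.19%) for Oct4-KO against Sox2 Ctrl early ICM, 0.0789% (0.0374%) for Sox2-KO early ICM, 0.0% (0.341%) and lower 0.0197% (0.0505%) for late against early ICM in Sox2 Ctrl and lower 0.256% (0.318%) in Oct4-KO. Quantile normalization gave 0.631% (0.274%) for the difference of effects. A rule threshold of 2 gave 1.47% (0.351%) for it and 0.155% (0.474%) for Sox2 Ctrl late against early ICM, with 1290 closing peaks, and a threshold of 1 gave 14349. Start sites within 1 kb were near 7.97% (19.5%) of peaks. Within 50 kb, closing peaks were 1.8% of peaks at TE, 1.31% at pluripotency, 1.44% at Hippo and 1.96% at FGF and ERK genes, beside 3.33% of all peaks. The cause of these moves was not tested.

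With a replicate block the shares were 1.38% (0.598%) and 5.58% (4.22%) for Sox2-KO early and late ICM, 2.07% (0.913%) for the difference of effects, 0.394% (1.14%) and lower 0.276% (0.454%) for late against early ICM in Sox2 Ctrl and 2.11% (2.62%) and lower 1.89% (1.5%) in Oct4-KO. The block also moved the small shares in the other direction, to 0.158% (15.8%) higher in Oct4-KO early ICM against morula, and to 0.0986% (6.79%) and 0.532% (11.9%) lower in Oct4-KO early and late ICM, 0.0986% (2.62%) and 0.592% (5.88%) lower in Sox2-KO early and late ICM and 0.217% (1.23%) lower for the difference of effects. Every same-numbered pair passed the pairing check only in Oct4 early ICM and Oct4 late morula. In Sox2 early ICM the pairs lay between 0.0859 and 0.293, and the numbers were not taken as pairs there or in the remaining stages. Where the check held, in Oct4 early ICM, the block gave 18.4% (4.04%) higher in Oct4-KO than in Ctrl.

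Leaving out 1 library gave, for closing peaks alone, 43.6% to 60.2% lower in Oct4-KO early ICM against late morula and 50.9% to 65.7% lower against morula. It gave 9.15% to 14.2% for Oct4-KO against Ctrl early ICM, 6.21% to 9.27% (lower 1.08% to 1.5%) against Sox2 Ctrl, 13.9% to 18.2% for Oct4-KO late ICM, 0.296% to 0.592% and 2.15% to 3.04% for Sox2-KO early and late ICM, 0.513% to 1.2% for the difference of effects, 0.0% to 0.118% (lower 0.0197% to 0.118%) for late against early ICM in Sox2 Ctrl and 0.434% to 1.16% (lower 0.256% to 0.828%) in Oct4-KO, and 4712 to 6111 closing peaks. Of 69 called differences at 42 named peaks, none reversed under any alternative run, and 17 were lost on leaving out a library. Differences of 1 were mostly missed in the self-test, which changed few peaks.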
